A study of Mus musculus with 8 samples.

Results

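The genes described are 7 genes of the mouse major histocompatibility complex (MHC), the H2 complex on chromosome 17. They are the class II genes H2-Ab1, H2-Aa and H2-Eb1 and the class I genes H2-K1, H2-D1, H2-Q2 and H2-Q4, 7 of the 21774 protein-coding genes placed on the chromosomes of GRCm38. Every called peak over one of these genes, or within 5 kb of it, was counted: 6 of 33739 peaks in Ezh2-cKO, 8 of 49405 in Utx-cKO, 7 of 27013 in Jmjd3-cKO and 6 of 28057 in wild type (WT). The genes were selected on the presence, width and rank of these called peaks, known from an earlier look at the lists. Presence, absence, width and rank at them are therefore given as a description, with no test.

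The peaks come from chromatin immunoprecipitation and sequencing (ChIP) of mouse cartilage chondrocytes grown in culture, with an antibody labelled anti-H3K27me3. This mark, trimethylation of lysine 27 of histone H3, is written by Ezh2, the enzyme of Polycomb repressive complex 2, and removed by the demethylases Utx and Jmjd3. The groups were conditional knockouts (cKO) of the 3 enzymes, labelled Ezh2-Cko, Utx-cKO and Jmjd3-Cko, and wild type, each with 1 ChIP library and 1 input library. The sources used here do not give the Cre driver, nor the age, sex or strain of the mice. A difference between genotypes rests on single libraries, so no replicate check and no p-value is given.

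Class I molecules are carried by most nucleated cells, where they pair with beta 2 microglobulin and show peptides made inside the cell to CD8 T cells. H2-K1 and H2-D1 encode classical class I heavy chains, while H2-Q2 and H2-Q4 belong to the Qa group of non-classical or less polymorphic class I genes. Class II molecules are pairs of an alpha and a beta chain that show peptides taken up from outside to CD4 T cells, and in the resting animal they are made mainly by dendritic cells, macrophages and B cells. H2-Aa encodes the alpha chain and H2-Ab1 the beta chain of the I-A molecule, and H2-Eb1 the beta chain of I-E. The promoters of both classes carry a row of short boxes, of which the X and Y boxes are bound by the RFX and NF-Y proteins. The coactivator Ciita is recruited at class II promoters and Nlrc5 at class I promoters. Strains of mice carry different H2 haplotypes, which differ in sequence and in the number of class I genes. A difference in haplotype between the animals and a difference in genotype cannot be told apart here.

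The promoter stretches are shown because the class I peaks sit on or beside them, whereas the listed promoters of H2-Aa and H2-Eb1 had no peak. Of the 7 genes, 6 have an entry in the RefSeq promoter table of GRCm38.p6, and H2-Ab1 has none. The class II gene H2-Ab1 did have peaks at its lower-coordinate end in Utx-cKO and Jmjd3-cKO, and a Utx-cKO peak crossed that end. Without an entry its strand and start are not given here, so whether these peaks lie at its promoter was not determined. Each line gives the 200 bases just before the listed start of the gene, 5′ to 3′ on the gene's own strand. Capitals mark 3 motifs on either strand: the Y box core ATTGG, the X2 box core TGACG and the enhancer A core. The last, GGGGATT followed by any base and CC, is bound by NF-kB factors and was added after the sequences were seen.
H2-D1: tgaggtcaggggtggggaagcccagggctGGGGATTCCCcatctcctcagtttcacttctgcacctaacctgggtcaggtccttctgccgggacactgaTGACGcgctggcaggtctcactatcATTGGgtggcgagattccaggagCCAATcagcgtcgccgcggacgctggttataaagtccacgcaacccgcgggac
H2-K1: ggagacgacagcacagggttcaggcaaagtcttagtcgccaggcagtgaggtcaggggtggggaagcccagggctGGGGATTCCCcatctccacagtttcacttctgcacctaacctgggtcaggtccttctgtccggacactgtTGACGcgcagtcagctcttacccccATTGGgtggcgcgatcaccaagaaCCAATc
H2-Q4: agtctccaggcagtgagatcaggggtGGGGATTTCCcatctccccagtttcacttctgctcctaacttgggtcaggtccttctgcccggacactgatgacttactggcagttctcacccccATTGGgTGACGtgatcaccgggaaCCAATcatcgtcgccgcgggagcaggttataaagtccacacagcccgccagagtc
H2-Q2: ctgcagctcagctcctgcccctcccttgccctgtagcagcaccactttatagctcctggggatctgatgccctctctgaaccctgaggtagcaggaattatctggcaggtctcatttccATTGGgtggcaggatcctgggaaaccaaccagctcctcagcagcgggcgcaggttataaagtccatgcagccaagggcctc
H2-Aa: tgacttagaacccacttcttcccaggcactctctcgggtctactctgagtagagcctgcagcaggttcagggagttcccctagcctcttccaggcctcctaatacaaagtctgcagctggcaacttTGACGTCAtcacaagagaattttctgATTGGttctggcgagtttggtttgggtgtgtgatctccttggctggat
H2-Eb1: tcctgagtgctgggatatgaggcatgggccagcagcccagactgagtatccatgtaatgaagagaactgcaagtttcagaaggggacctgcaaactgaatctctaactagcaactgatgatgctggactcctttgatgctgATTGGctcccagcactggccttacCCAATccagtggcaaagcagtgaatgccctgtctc
These stretches lie at chr17:35262894-35263093 on the plus strand for H2-D1, chr17:34000334-34000533 on the minus strand for H2-K1 (the downstream one of its listed starts), chr17:35379417-35379616 on the plus strand for H2-Q4, chr17:35342107-35342306 on the plus strand for H2-Q2, chr17:34287824-34288023 on the minus strand for H2-Aa and chr17:34305667-34305866 on the plus strand for H2-Eb1.

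The motifs were counted in windows of 250 bases before to 50 bases after the listed start. All 6 windows held the Y box core, which 37.4% of the 32851 promoters in the table also hold. The X2 box core was in 4 of the 6, those of H2-Aa, H2-K1, H2-D1 and H2-Q4, against 20.8% of all promoters, and its match in H2-Aa reads TGACG on both strands with overlap. The match marked in H2-Q4 lies downstream of the first Y box core, whereas those in H2-Aa, H2-K1 and H2-D1 lie upstream of it, so it is a match to the letters and not at the place of the X2 box. The enhancer A core was in H2-K1, H2-D1 and H2-Q4, against 0.268% of all promoters. None of the 6 held GAAA and GAAA with 2 free bases between, the only form of interferon response element searched, which 3.44% of promoters hold. Other forms of that element were not searched, so these promoters are not shown to lack one. The class I windows resemble each other. Over 253 aligned bases those of H2-K1 and H2-D1 were identical at 222, or 87.7%, and H2-Q4 matched H2-K1 at 84.4% and H2-D1 at 83.1%. H2-Q2 stood further off, with 67.7% identity to H2-K1, 72.7% to H2-Q4 and 76.3% to H2-D1. Reads from such copies can be placed on the wrong gene. The sources used here do not say how the aligner treated them, and their part in the class I peaks was not tested.

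The ChIP libraries held 25655346 to 34786292 fragments after removal of duplicates and the inputs 16599532 to 24041619. What sets the difference in length between the lists was not tested. A peak lay over or within 5 kb of 71.0% of protein-coding genes in Ezh2-cKO, 73.9% in Utx-cKO, 69.3% in Jmjd3-cKO and 69.0% in WT. All 8 chondrocyte marker genes had a peak in every list, and 4, 5, 4 and 3 of 11 blood cell marker genes had one in Ezh2-cKO, Utx-cKO, Jmjd3-cKO and WT. Of these, Spi1 and Cd79a had one in all 4 lists, Csf1r and Cd3e in Ezh2-cKO and Utx-cKO, Ptprc (the pan-leukocyte gene Cd45) in Utx-cKO and Jmjd3-cKO, and Flt3 in Jmjd3-cKO and WT. The rest, the dendritic cell gene Itgax among them, had none in any list. The part of blood cells in the peaks described here was not tested. Of 77 ribosomal protein genes, some tissue-restricted paralogues such as Rpl10l included, 75, 74, 75 and 75 had a peak in Ezh2-cKO, Utx-cKO, Jmjd3-cKO and WT, against 11, 17, 13 and 9 of 17 Polycomb targets of other lineages. A peak is therefore not read here as a sign of a silent gene.

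At the 7 genes, 5 had a peak in Ezh2-cKO, 5 in Utx-cKO, 6 in Jmjd3-cKO and 5 in WT. H2-Eb1, H2-K1, H2-D1 and H2-Q4 had one in all 4 lists and H2-Aa in none. H2-Ab1 had a peak in both demethylase knockouts and not in Ezh2-cKO or WT, and H2-Q2 lacked one in Utx-cKO alone. In Utx-cKO, 1 of the 7 genes had a peak that WT lacked, against 5.33% of all genes, and 1 had the converse, against 0.510%. In Jmjd3-cKO, 1 of the 7 had a peak that WT lacked, against 2.01% of all genes, and 0 had the converse, against 1.78%. Between Ezh2-cKO and WT none of the 7 differed in presence, where 3.07% of all genes had a peak in the knockout alone and 1.13% in WT alone. Since the genes were chosen with these contrasts known, nothing is read from the shares.

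**Figure D1:**
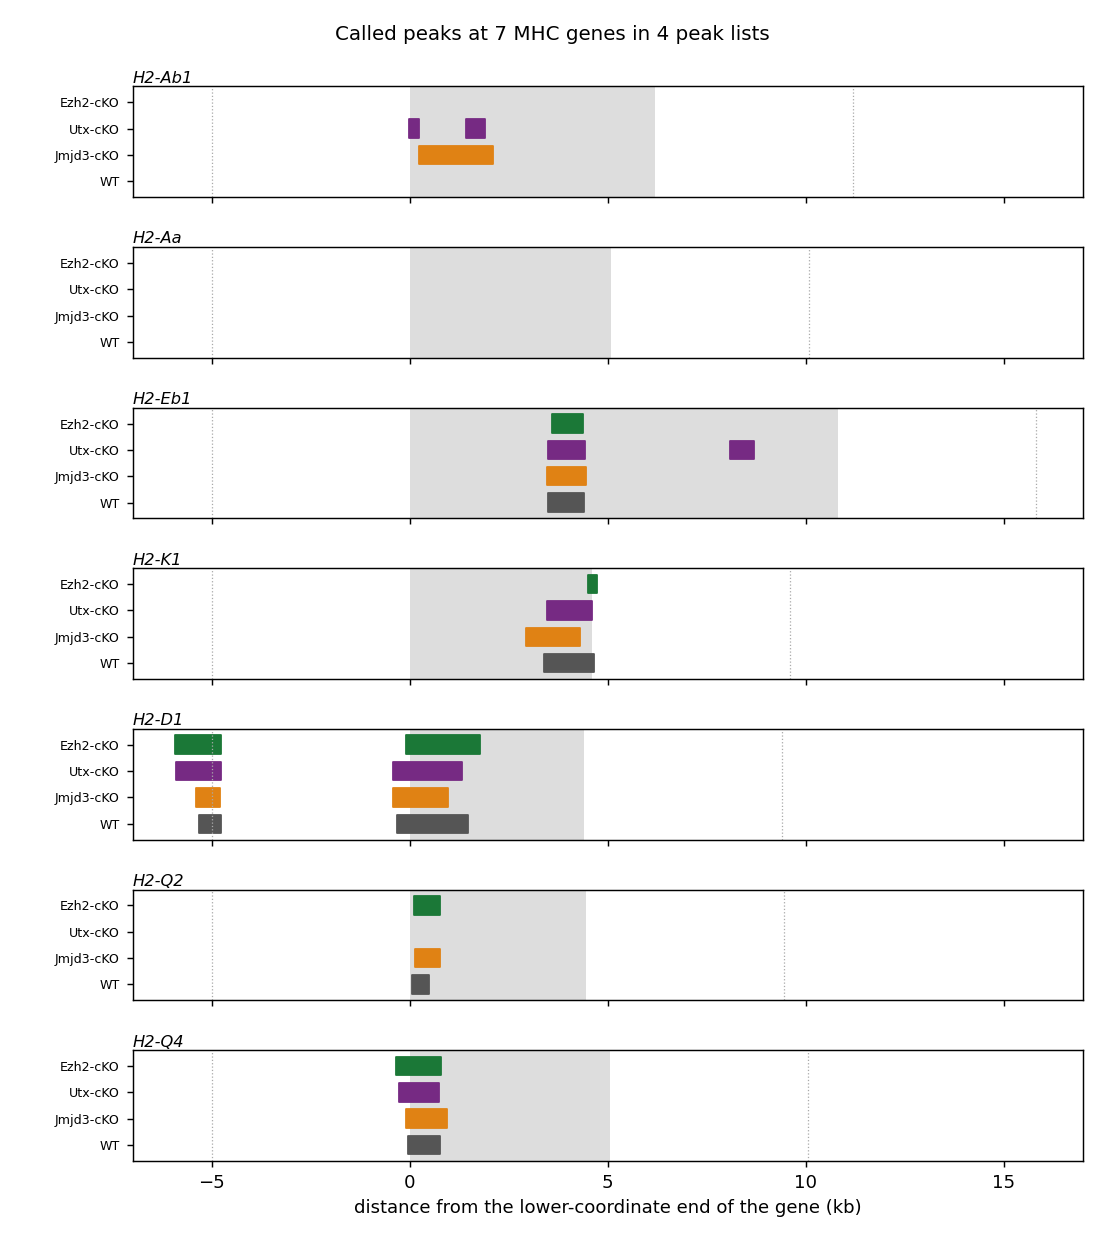
Called peaks (bars) at the 7 genes in the Ezh2-cKO, Utx-cKO, Jmjd3-cKO and WT lists, against distance in kb from the lower-coordinate end of each gene; grey marks the gene and dotted lines the 5 kb limits. H2-Aa is empty in all 4 lists, H2-Ab1 has peaks in Utx-cKO and Jmjd3-cKO alone, and the H2-Q2 row of Utx-cKO is empty.

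Among the class II genes, H2-Ab1, the I-A beta chain gene at chr17:34263227-34269418, had peaks at its lower-coordinate end in both demethylase knockouts. The Utx-cKO list held one of 231 bp at 34263218 to 34263448 with fold enrichment 3.74 over the local input, and one of 477 bp at 34264649 to 34265125 with 3.48. The Jmjd3-cKO list held a single peak of 1878 bp at 34263461 to 34265338 with fold enrichment 4.60. The short Utx-cKO peak and the Jmjd3-cKO peak do not overlap, and the Jmjd3-cKO peak takes in the whole of the longer Utx-cKO one. The nearest peak to the gene lay 40043 bp away in Ezh2-cKO and 39941 bp away in WT, so both lists were empty over the gene and far around it. The shortest peak that the Utx-cKO list holds is 223 bp, and 98.7% of its peaks were longer than the one of 231 bp. The pattern of H2-Ab1, present in Utx-cKO and Jmjd3-cKO and absent in Ezh2-cKO and WT, was shared by 100 protein-coding genes (0.459%), itself included. Since the gene was chosen with these lists known, nothing is read from that share. Both knockouts share a library title prefix, while Ezh2-cKO and WT each have a prefix of their own. The labels do not say what the prefix stands for. Whatever it marks cannot be told apart from the loss of the enzyme, at this gene or in any other difference between a knockout and WT.

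H2-Aa, the I-A alpha chain gene at chr17:34282744-34287823, had no peak in any list. Its nearest peak lay 21638 bp off in Ezh2-cKO, 17619 bp in Utx-cKO, 17406 bp in Jmjd3-cKO and 21536 bp in WT. In the demethylase knockouts that nearest peak was the one over H2-Ab1. In Ezh2-cKO and WT it was the peak inside H2-Eb1. The absence of a peak here was shared with 5426 genes (24.9%) that had none in any of the 4 lists.

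H2-Eb1, the I-E beta chain gene at chr17:34305867-34316674, had a peak inside the gene in every list, at nearly the same place. It spanned 34309461 to 34310229 in Ezh2-cKO, 34309364 to 34310282 in Utx-cKO, 34309336 to 34310328 in Jmjd3-cKO and 34309359 to 34310262 in WT. Its centre lay 3978, 3956, 3965 and 3944 bp downstream of the listed start in Ezh2-cKO, Utx-cKO, Jmjd3-cKO and WT, and none of these peaks touched the promoter window. Fold enrichment was 3.06 in Ezh2-cKO, 6.04 in Utx-cKO, 4.97 in Jmjd3-cKO and 4.004 in WT, each over its own input. The peak stood at percentile 49.6 of its list in Ezh2-cKO, 79.0 in Utx-cKO, 59.2 in Jmjd3-cKO and 58.3 in WT, counted as the share of peaks with the same or a lower fold enrichment. The edges of the WT peak and of the Utx-cKO peak differ by 5 bp at the lower end and 20 bp at the upper end. Utx-cKO also had a second peak, of 604 bp at 34313957 to 34314560, with fold enrichment 2.54 and at percentile 6.23 of the list. Whether the peaks lie in an exon or an intron was not determined, since the gene table gives no exons.

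Among the class I genes, H2-D1 at chr17:35263094-35267497 carried the highest-ranked peak of the 7 genes in each list. The peak over its start measured 1854 bp in Ezh2-cKO, 1729 bp in Utx-cKO, 1380 bp in Jmjd3-cKO and 1792 bp in WT. Fold enrichment was 8.46 in Ezh2-cKO, 10.5 in Utx-cKO, 11.2 in Jmjd3-cKO and 8.16 in WT, at percentiles 86.7, 91.5, 89.6 and 88.2 of these lists. These percentiles lie close together, while the fold enrichments carry the scale of each library pair and were not compared between lists. The peak ran over the listed start in all 4 lists and overlapped the 300 bases of the promoter window by 133 in Ezh2-cKO and by 300 in each of Utx-cKO, Jmjd3-cKO and WT. A further peak lay upstream at 35257162 to 35258334 in Ezh2-cKO, 35257184 to 35258332 in Utx-cKO, 35257691 to 35258295 in Jmjd3-cKO and 35257764 to 35258314 in WT. It was 1173 bp long in Ezh2-cKO and 1149 bp in Utx-cKO, against 605 bp in Jmjd3-cKO and 551 bp in WT. This upstream peak, 4760 to 4799 bp from H2-D1, lies just inside the 5 kb limit, and the end of the RNA helicase gene Ddx39b is nearer to it, at 3455 to 4057 bp. Just outside the limit, the closest peaks to any of the 7 genes were at 7158 bp from H2-D1 in Utx-cKO and at 8383 bp from it in Ezh2-cKO.

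H2-K1, the other classical class I gene, at chr17:33996012-34000619 on the minus strand, had 1 peak per list at its upstream end, and of the genes with a peak in every list it was the one whose longest and shortest peaks lay furthest apart in length ratio. The peak was 239 bp in Ezh2-cKO, 1157 bp in Utx-cKO, 1365 bp in Jmjd3-cKO and 1260 bp in WT. The Ezh2-cKO peak, at 34000503 to 34000741, was close to the shortest length in that list (231 bp) and covered 12.5% of the WT peak at 33999401 to 34000660. The Utx-cKO peak at 33999469 to 34000625 lay wholly within the WT peak and covered 91.8% of it. The Jmjd3-cKO peak at 33998940 to 34000304 reached further into the gene and covered 71.7% of the WT peak. The listed start used here is the downstream one of this gene. The Ezh2-cKO peak ended 170 bp upstream of that start and the Jmjd3-cKO peak 29 bp downstream of it, whereas those of Utx-cKO and WT ran across it. At the upper-coordinate end of the gene, 34000619, the Ezh2-cKO, Utx-cKO and WT peaks all ran across, and the Jmjd3-cKO peak did not reach it. Fold enrichment was 3.03 in Ezh2-cKO, 3.54 in Utx-cKO, 7.02 in Jmjd3-cKO and 4.35 in WT, at percentiles 48.7, 65.9, 71.1 and 61.4 of these lists.

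H2-Q4, a Qa-region class I gene at chr17:35379617-35384674, had a peak of 1124 bp in Ezh2-cKO, 1004 bp in Utx-cKO, 1034 bp in Jmjd3-cKO and 812 bp in WT. Fold enrichment was 5.85 in Ezh2-cKO, 6.15 in Utx-cKO, 8.81 in Jmjd3-cKO and 5.12 in WT, at percentiles 73.7, 79.3, 80.6 and 67.5, the second highest of the 7 genes in every list. All 4 peaks ran over the listed start. The Ezh2-cKO and Jmjd3-cKO peaks took in the whole WT peak, and the Utx-cKO peak 96.8% of it.

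H2-Q2, the neighbouring Qa-region gene at chr17:35342307-35346764, had a peak in Ezh2-cKO, Jmjd3-cKO and WT and none in Utx-cKO, the longest of the lists. The peak was 669 bp in Ezh2-cKO at 35342411 to 35343079, 641 bp in Jmjd3-cKO at 35342440 to 35343080, and 423 bp in WT at 35342375 to 35342797. Fold enrichment was 3.52 in Ezh2-cKO, 3.35 in Jmjd3-cKO and 3.62 in WT, at percentiles 58.3, 42.2 and 53.9. All of these peaks began downstream of the listed start, by 104 bp in Ezh2-cKO, 133 bp in Jmjd3-cKO and 68 bp in WT, and none reached the promoter window. The nearest peak in Utx-cKO was 21060 bp away, over the start of H2-Q1. This pattern of presence in Ezh2-cKO, Jmjd3-cKO and WT with absence in Utx-cKO was shared by 11 protein-coding genes (0.0505%), H2-Q2 included. Of all protein-coding genes, 111 had a peak in WT and none in Utx-cKO. Since H2-Q2 was chosen with these lists known, nothing is read from the share.

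**Figure D2:**
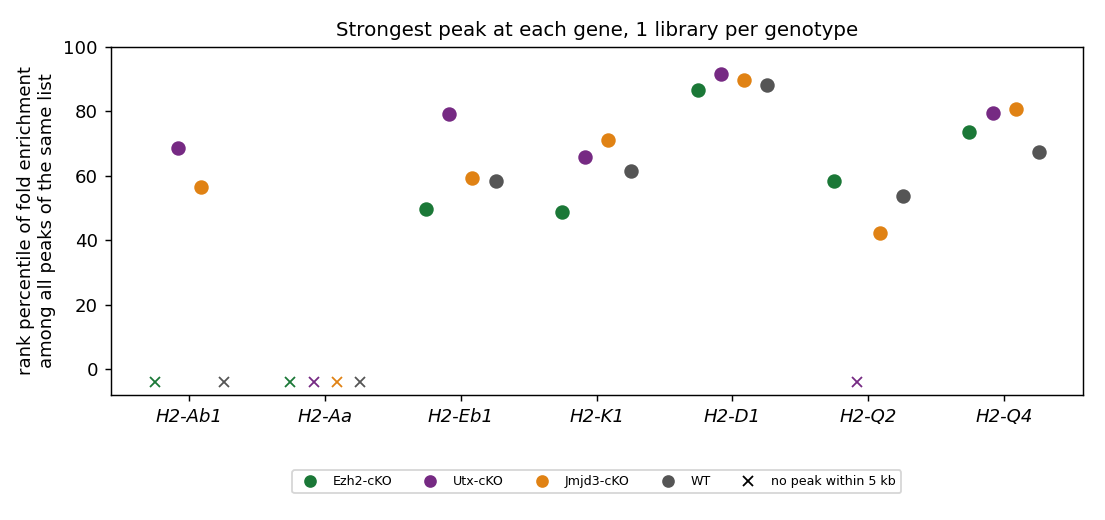
Rank percentile of the strongest peak at each of the 7 genes among all peaks of the same list (points; Ezh2-cKO, Utx-cKO, Jmjd3-cKO, then WT), with crosses below 0 where no peak lay within 5 kb. H2-D1 lies between 86.7 and 91.5 in all 4 lists and H2-Q4 between 67.5 and 80.6, while H2-Ab1 has points in Utx-cKO and Jmjd3-cKO alone.

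Within each list H2-D1 ranked first and H2-Q4 second, and the order below them changed. In Ezh2-cKO it went on with H2-Q2, H2-Eb1 and H2-K1, and in Utx-cKO with H2-Eb1, H2-Ab1 and H2-K1. In Jmjd3-cKO the order was H2-K1, H2-Eb1, H2-Ab1 and H2-Q2, and in WT H2-K1, H2-Eb1 and H2-Q2. H2-Q4 and H2-Eb1 were close in Utx-cKO, at 79.3 and 79.0, and H2-Eb1 and H2-K1 in Ezh2-cKO, at 49.6 and 48.7. Without replicates no spread is known for these neighbours in the order. The median percentile over the genes with a peak was 58.3 in Ezh2-cKO, 79.0 in Utx-cKO, 65.2 in Jmjd3-cKO and 61.4 in WT. Over all protein-coding genes with a peak, the median of the strongest peak was 81.5 in Ezh2-cKO, 87.0 in Utx-cKO, 77.2 in Jmjd3-cKO and 78.2 in WT. Ranked among those genes, H2-D1 stood at percentile 63.1, 66.9, 77.0 and 72.6 in Ezh2-cKO, Utx-cKO, Jmjd3-cKO and WT. H2-K1 stood at 7.64, 10.6, 38.2 and 21.2 in the same lists, and H2-Eb1 at 8.02, 27.0, 19.9 and 17.7. Rank was part of the choice of genes, so nothing is read from their standing among all genes.

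**Figure D3:**
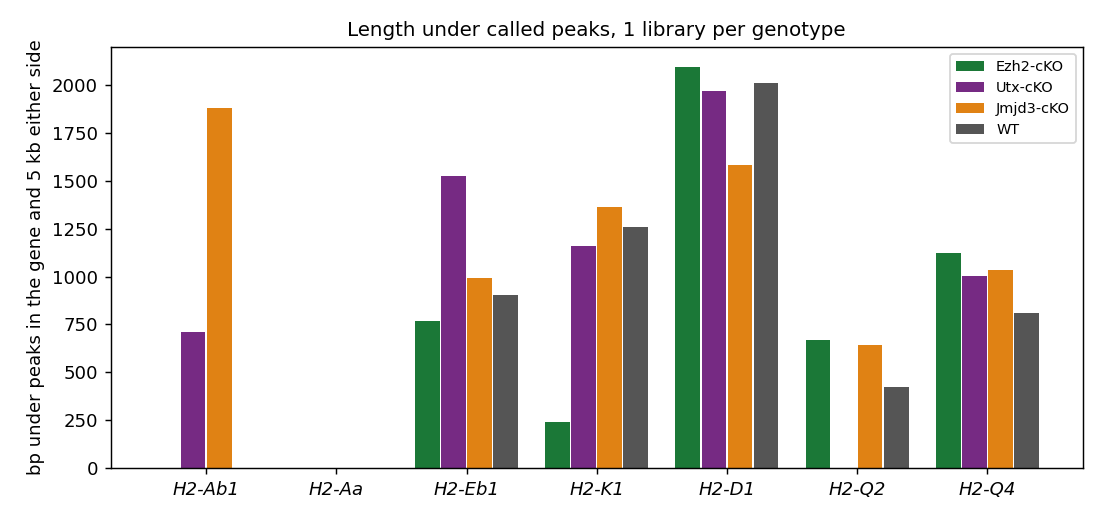
Length in bp under called peaks inside each gene and 5 kb either side (bars; Ezh2-cKO, Utx-cKO, Jmjd3-cKO, then WT). H2-K1 has 239 bp in Ezh2-cKO against 1260 bp in WT, and H2-Ab1 has 708 bp in Utx-cKO and 1878 bp in Jmjd3-cKO against none in WT.

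Summed over the 7 genes with 5 kb on either side, peaks covered 4896 bp in Ezh2-cKO, 6360 bp in Utx-cKO, 7493 bp in Jmjd3-cKO and 5412 bp in WT. These sums are 0.905, 1.18 and 1.38 times WT in Ezh2-cKO, Utx-cKO and Jmjd3-cKO. Over all protein-coding genes the same sums were 1.17, 1.74 and 1.02 times WT in Ezh2-cKO, Utx-cKO and Jmjd3-cKO. Width was part of the choice of genes, so nothing is read from setting these ratios side by side. The extra length in Jmjd3-cKO stood mostly at H2-Ab1, with 1878 bp against 0 bp in WT. At H2-Eb1 the Utx-cKO length was 1523 bp, against 904 bp in WT, a ratio of 1.68 that includes the second peak. At H2-D1 the lengths were 2095 bp in Ezh2-cKO, 1968 bp in Utx-cKO and 1582 bp in Jmjd3-cKO, against 2013 bp in WT.

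The stretches before the start differ in how many CG pairs they hold. The choice of genes did not use these counts, but it did use the peaks set beside them here. H2-D1 has 12 in 200 bases, H2-Q4 has 8 and H2-K1 has 7, and peaks overlapped the promoter windows of these genes in all 4 lists. H2-Aa has 3, H2-Q2 has 2 and H2-Eb1 has 0, and no peak overlapped their windows in any list. The median over 32851 promoters was 5. The split by overlap hangs partly on few bases. The H2-Q2 peaks began 55 bp past the promoter window in Ezh2-cKO, 84 bp in Jmjd3-cKO and 19 bp in WT. At H2-K1 the Jmjd3-cKO overlap was 21 bp, all after the start, outside the stretch in which CG pairs were counted. The reverse-strand Y box core match ends at base -2 from the listed start in H2-K1, -49 in H2-D1 and -51 in H2-Q4. The H2-K1 stretch therefore does not cover the same part of the promoter as the others. The comparison is a description of 6 genes, of which the class I genes share sequence. Whether promoters in general split this way was not tested.

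The other genes of antigen presentation were taken from lists drawn up by gene function, with earlier results of these data known. Of 14 other class I genes, 7 had a peak in Ezh2-cKO, 10 in Utx-cKO, 9 in Jmjd3-cKO and 9 in WT. With peaks at q of 0.001 or less the counts were 7 in Ezh2-cKO, 9 in Utx-cKO, 9 in Jmjd3-cKO and 6 in WT, where H2-Q6, H2-Q10 and H2-T24 lost theirs, so the order of Ezh2-cKO and WT turned round. H2-Q1, H2-Q6, H2-Q7 and H2-Q10 had one in all 4 lists. Fold enrichment at H2-Q7 was 7.15 in Ezh2-cKO, 5.22 in Utx-cKO, 9.17 in Jmjd3-cKO and 5.31 in WT, at percentiles 80.6, 76.5, 82.2 and 69.1. H2-T22, H2-T23 and H2-T24, non-classical class I genes, had peaks in Utx-cKO, Jmjd3-cKO and WT and none in Ezh2-cKO. These genes lie side by side and share peaks: 4 distinct peaks served them in Utx-cKO, 3 in Jmjd3-cKO and 4 in WT. At H2-T23 the fold enrichment was 3.19 in Utx-cKO, 4.91 in Jmjd3-cKO and 3.50 in WT, at percentiles 57.5, 58.8 and 52.2. H2-T3, the gene of the thymus leukaemia antigen, had a peak in Ezh2-cKO (2.86) and Utx-cKO (2.82) and none in Jmjd3-cKO or WT, and the Utx-cKO peak was lost at q of 0.001 or less and with equally long lists.

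Of 6 other class II genes, 2 had a peak in Ezh2-cKO, 3 in Utx-cKO, 2 in Jmjd3-cKO and 2 in WT. H2-DMa, whose product loads peptides onto class II molecules, was reached in every list by a long peak, of 13290 bp in Ezh2-cKO, 15166 bp in Utx-cKO, 14721 bp in Jmjd3-cKO and 12181 bp in WT. This peak began outside the gene's lower-coordinate end, 34119693, at 34111492, 34109703, 34110504 and 34112967 in Ezh2-cKO, Utx-cKO, Jmjd3-cKO and WT. It ended inside the gene, at 34124781 to 34125224, short of the other end at 34139101. Which other genes it lies over was not determined. H2-Oa, the alpha chain of a regulator of that loading, had a peak of 296 bp within 5 kb in Utx-cKO alone, which was lost at q of 0.001 or less, with equally long lists and with a window of 2 kb. H2-Ob, H2-DMb1 and H2-Eb2 had none in any list.

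Of 13 genes of peptide supply and loading, 13 had a peak in Ezh2-cKO, 13 in Utx-cKO, 12 in Jmjd3-cKO and 12 in WT. B2m, the gene of the class I light chain, had fold enrichment 7.99 in Ezh2-cKO, 9.78 in Utx-cKO, 10.2 in Jmjd3-cKO and 5.78 in WT. Its percentiles in these lists were 84.6, 89.6, 86.2 and 72.8. A single peak covered the facing ends of Psmb9, a subunit of the immunoproteasome, and Tap1, a subunit of the peptide transporter, in every list. Cd74, the invariant chain that guards the class II groove, had a peak in Ezh2-cKO (2.49) and Utx-cKO (2.65) and none in Jmjd3-cKO or WT. At q of 0.001 or less, and with equally long lists, both of these peaks were lost and Cd74 had none in any list. Of 14 regulators, 14 had a peak in Ezh2-cKO, 14 in Utx-cKO, 13 in Jmjd3-cKO and 14 in WT. The missing one was Ciita, the class II coactivator, whose strongest peak reached fold enrichment 3.49 in Ezh2-cKO and 4.31 in Utx-cKO, against 3.21 in WT. The Jmjd3-cKO list held a peak at H2-Ab1 and none at Ciita or Cd74, while the Utx-cKO list held peaks at each of these genes. Any link between them was not tested. Nlrc5, the class I coactivator, had fold enrichment 8.23 in Ezh2-cKO, 11.7 in Utx-cKO, 10.4 in Jmjd3-cKO and 7.94 in WT. Its percentiles in these lists were 85.7, 94.0, 86.9 and 87.1. Here too the fold enrichments carry the scale of each library pair and were not compared between lists. Over the 47 genes of these lists, 36 had a peak in Ezh2-cKO (76.6%), 40 in Utx-cKO (85.1%), 36 in Jmjd3-cKO (76.6%) and 37 in WT (78.7%), beside the genome-wide shares of 71.0%, 73.9%, 69.3% and 69.0% given above. At q of 0.001 or less the counts were 35 in Ezh2-cKO, 37 in Utx-cKO, 36 in Jmjd3-cKO and 34 in WT.

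**Figure D4:**
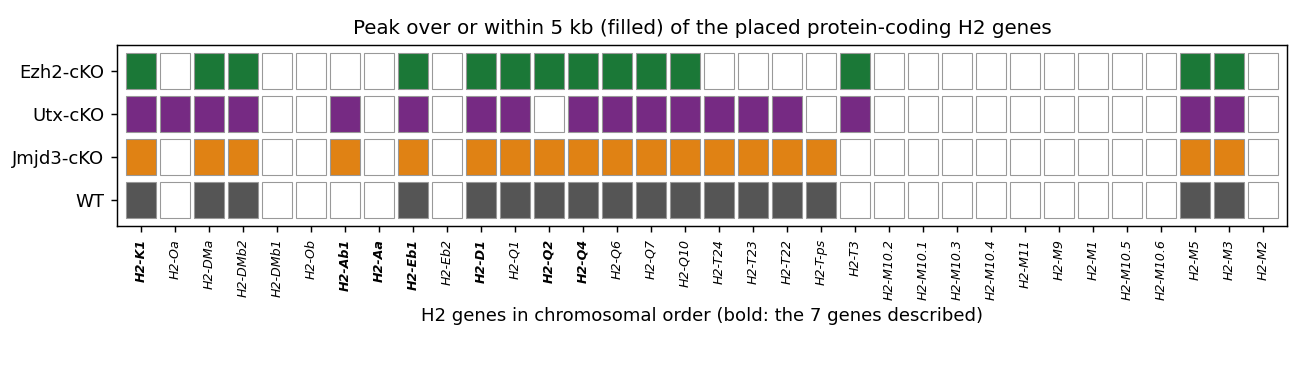
Presence (filled) or absence of a peak over or within 5 kb of the 34 placed protein-coding H2 genes, in chromosomal order, in the Ezh2-cKO, Utx-cKO, Jmjd3-cKO and WT lists. A run from H2-D1 to H2-Q10 is filled in all 4 lists but for H2-Q2 in Utx-cKO, and H2-T24, H2-T23 and H2-T22 are empty in Ezh2-cKO.

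Along the H2 complex as a whole, 14 of 34 placed protein-coding H2 genes had a peak in Ezh2-cKO, 18 in Utx-cKO, 18 in Jmjd3-cKO and 17 in WT. The knockout counts are 41.2% of the H2 genes in Ezh2-cKO and 52.9% in each of Utx-cKO and Jmjd3-cKO. In every list, WT included, the share lay below that of all protein-coding genes. Those genome-wide shares were 71.0% in Ezh2-cKO, 73.9% in Utx-cKO, 69.3% in Jmjd3-cKO and 69.0% in WT. The 34 genes include the 7 chosen ones, and the difference was not tested. In all 4 lists 12 H2 genes had a peak, and 14 had none in any. The empty genes include all 6 H2-M10 genes, class I genes known in the mouse for expression in the vomeronasal organ. The class II stretch of 53.4 kb from H2-Ab1 to H2-Eb1 held 1 peak in Ezh2-cKO, 4 in Utx-cKO, 2 in Jmjd3-cKO and 1 in WT, covering 1.44%, 4.16%, 5.37% and 1.69% of it. The stretch of 121.6 kb from H2-D1 to H2-Q4 had another order, with 6 peaks in Ezh2-cKO, 5 in Utx-cKO, 5 in Jmjd3-cKO and 4 in WT, covering 4.39%, 3.86%, 2.98% and 2.73% of it.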

How the data were processed

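Per the file headers, the authors ran MACS 2.1.2 in broad, paired-end mode on every ChIP library with its own genotype's input as control, at a q of 0.05, with 1 duplicate kept per position, the larger library scaled to the smaller and no pooling. Bowtie2, FastQC 0.11.5, HOMER 4.10, deepTools 2.4.1 and ChIPseeker are named in the submitters' processing notes; no Bowtie2 version or genome build is named there or in the labels. Columns of the deposited lists are a coverage signal (pileup, not compared here), −log10 p and −log10 q, a ratio of ChIP to local input (fold enrichment) and peak length in bp.

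RefSeq's GRCm38.p6 table placed 21774 protein-coding genes; 113 genes on separate scaffolds were left out. As a check of the build, WT peaks touched 43.1% of its 32851 promoter windows, against 3.66% and 3.70% with the windows moved by 20 kb either way. The table gives no exons, and start and strand came from its promoter table. A peak counted from 1 bp of overlap with the gene or 5 kb on either side. Ranks are percentiles of fold enrichment within a list. H2-T10, a pseudogene in the table, left 14 of 15 other class I genes. For each gene with a peak, the 3 genes outside the H2 family closest in rank percentile (0 where absent) over the 4 lists were taken. The genes and lists were chosen with earlier results of these data known. Named genes were the 7 members and the antigen presentation list genes that differed from WT; others were named after their values were seen. Marking was checked on simulated peaks: 200 of 200 genes were found. Tools were Python 3.11.15, Biopython 1.88, pandas 2.3.3, numpy 2.4.6, matplotlib 3.10.9 and scipy 1.17.1.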

Additional observations from a re-analysis of the deposited data

How the results depend on the processing

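No paired analysis was possible because each genotype has 1 ChIP library. Peaks with q of 0.001 or less, lists cut to their 27013 peaks with the lowest q, a peak over the gene itself, windows of 2 and 10 kb, and at least 50% of the peak inside the window left the number of the 7 genes with a peak as it was in every list. At fold enrichment of 4 or more, a level not equal between lists, it was 2 in Ezh2-cKO (H2-D1 and H2-Q4) and 3 in Utx-cKO, with 5 in Jmjd3-cKO and 4 in WT. At that level the genes with a peak in WT and none in Ezh2-cKO rose to 2, H2-Eb1 and H2-K1, and those with a peak in Utx-cKO and none in WT fell to 0, as both H2-Ab1 peaks lie under it. The one gene with a peak in WT and none in Utx-cKO was then H2-K1 in place of H2-Q2.

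The length under peaks in Utx-cKO was 5756 bp at q of 0.001 or less and with equally long lists, and 7560 bp with peaks within 3 kb merged; the other lists kept their sums. Median rank percentiles in Ezh2-cKO, Utx-cKO, Jmjd3-cKO and WT were 54.4, 78.1, 59.7 and 56.2 by q, 41.1, 52.6, 53.2 and 46.3 by length, and 12.6, 27.0, 29.1 and 21.2 among genes with a peak. With a window of 2 kb the other class II genes fell to 1 in each list. The other class I genes were then 7 in Ezh2-cKO, as before, 9 in Utx-cKO, 7 in Jmjd3-cKO and 8 in WT. H2-M5 was lost in Utx-cKO, Jmjd3-cKO and WT, and H2-T24 in Jmjd3-cKO. The changes in the antigen presentation lists at q of 0.001 or less and with equally long lists stand beside their counts above. A peak list shows only regions past the threshold at this depth, so a gene without a peak is not shown to lack the mark.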

Other observations

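Genes outside the H2 family were compared with each of the 6 genes that had a peak, by the mean absolute difference in rank percentile over the 4 lists. Nearest to H2-D1 were Cox6a1 and Triap1, which share a peak, at 0.582 points each, and Gpbp1l1 at 0.689. Nearest to H2-Q4 were Naaa (1.09), Eml5 (1.14) and Nipal2 (1.40), and nearest to H2-Eb1 were Galr3 (1.41), Gabra2 (1.99) and Slc17a9 (2.13). H2-K1 had no gene as close, Elavl2 being nearest at 4.20, before Ptchd1 (4.27) and Evx1 (4.37). For H2-Ab1 the nearest were Ly6i (1.15), Tmem54 (2.35) and Dcpp3 (2.65), all without a peak in Ezh2-cKO and WT. For H2-Q2 they were Serpinb1b (2.63), Xirp2 (3.70) and 5730507C01Rik (5.86), all without a peak in Utx-cKO. These likenesses rest on 4 values per gene.

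The stretch of 1.39 Mb from H2-K1 to H2-Q4 also holds many genes that are not of the H2 family. Of its 86 protein-coding genes, 72 in Ezh2-cKO carried a peak, 76 in Utx-cKO, 69 in Jmjd3-cKO and 69 in WT, or 83.7%, 88.4%, 80.2% and 80.2%, beside 71.0%, 73.9%, 69.3% and 69.0% of all protein-coding genes. Peaks there numbered 89 in Ezh2-cKO, 113 in Utx-cKO, 66 in Jmjd3-cKO and 63 in WT, of 33739, 49405, 27013 and 28057 peaks in the whole lists.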
